A study of Mus musculus with 10 samples.

Results

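The 10 genes described here are the noncoding genes that came directly after the most abundant gene in mouse sperm. They were chosen from the data: FPKM (fragments per kilobase of transcript and sequencing depth) and expected counts were summed over the transcripts of each gene, and the genes were ranked by mean summed FPKM over the 4 control sperm pools. NONMMUG018329.2 took rank 1, and NONMMUG020676.2, NONMMUG074735.1, NONMMUG020672.2, NONMMUG049565.1, NONMMUG031296.2, NONMMUG020754.2, LXLOC_037274, LXLOC_042885, NONMMUG039964.2 and NONMMUG039787.2 took ranks 2 to 11 among the 69553 genes listed in any sample. All 10 were listed in all 10 samples, and all 10 passed the low-value filter of both comparisons that were tested. The 8 genes whose names begin with NONMMUG carry identifiers of the NONCODE catalogue of noncoding genes, and the 2 LXLOC genes were predicted as noncoding in the study itself.

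Long noncoding RNAs are transcripts that are not translated into protein, and many of those catalogued in the mouse are detected mainly in the testis. A mature sperm has packed its chromatin with protamines and makes almost no new RNA, so the RNA it holds was mostly made earlier, while the cell was developing in the testis, or taken up later. No role is given for any of the 10 genes by the files, and none is assigned to them here. Genome positions and sequences of these genes were not analysed here.

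Sequencing libraries came from C57BL/6 mice, aged 3 to 5 months by the labels, in 4 groups. The control groups, sperm (n = 4) and testes (n = 2), came from mice given one intraperitoneal injection of 0.9% saline. The cadmium groups, sperm (n = 2) and testes (n = 2), came from mice given one injection of cadmium chloride at 3 mg/kg. All mice were killed on day 35, and sperm were taken from the cauda epididymis and vas deferens and treated with a somatic cell lysis buffer. The labels give 50 mice in each arm, and the methods of the study give another number and age for the control mice. Each control library was a pool of several mice, how the cadmium libraries were pooled was not given in the sources used here, and no genetic modification was involved. P-values below therefore rest on spread between libraries, not between single mice. With so few libraries, edgeR took much of that spread from all genes tested, not from each gene alone. In cadmium sperm against cadmium testes it took nearly all of it from them, so a gene's own spread hardly entered its edgeR p-value.

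The total expected count was 366455 to 1058017 in control sperm, 1155491 to 1254477 in cadmium sperm and 2606086 to 2866856 in testes. Control sperm pool 1, which the study left out of its own comparisons, stands apart in the first-ranked gene and is kept here. Of 15 spermatid and sperm markers, 4 to 10 were above 0 in the control sperm pools, 12 in each cadmium sperm library and 14 in each testis library, and their summed FPKM was 263 to 554, 500 to 517 and 579 to 678 in those groups. Prm2, the main mouse protamine, was at 184 to 438 FPKM in sperm, whereas Prm1 was at 0 in control sperm pool 3. The Sertoli cell markers summed to 0 to 8.97 FPKM in sperm and 18.5 to 24.2 in testes, and the leukocyte markers to at most 5.30 FPKM in any library. The spermatogonia markers summed to 3.12 to 9.46 FPKM in sperm and 20.6 to 28.6 in testes. In testes most of the Sertoli cell sum was Dhh (13.92 to 18.31 FPKM) and most of the spermatogonia sum was Gfra1 (19.18 to 26.95 FPKM). The Leydig cell markers summed to 27.5 FPKM in control sperm pool 3, above the 15.0 to 21.2 FPKM of testes, and to at most 5.59 FPKM in the other sperm libraries. In that pool the sum was Star alone, with the other Leydig cell markers at 0. In such bulk samples, fewer cells of a type and less RNA per cell cannot be told apart.

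Together the 10 genes held 18.6% ± 3.77 (SD, n = 4) of all FPKM in control sperm and 20.2% ± 1.63 of all expected counts. By library, their share of FPKM was 23.1%, 19.1%, 18.2% and 13.9% in control sperm pools 1 to 4, and 3.44% and 4.02% in control testes. It was 9.17% and 13.4% in cadmium sperm and 3.71% and 4.21% in cadmium testes. Every sperm library lay above every testis library, and both cadmium sperm libraries lay below all 4 control sperm pools. The genes were chosen for their level in those pools, so these orders are a description and were not tested. The first-ranked gene followed another order over the sperm libraries, with 2.29% of FPKM in control sperm pool 1 and 11.6% to 15.8% in pools 2 to 4.

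**Figure D1:**
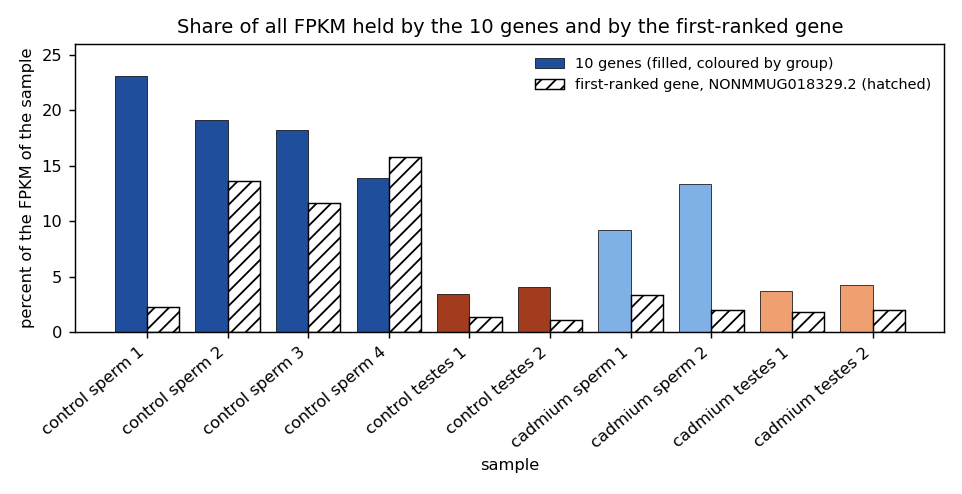
The y axis gives the percent of all FPKM in each of the 10 libraries (x axis) that was held by the 10 genes (filled bars, coloured by group) and by the first-ranked gene NONMMUG018329.2 (hatched bars). The 10 genes held 13.9% to 23.1% in control sperm, 9.17% and 13.4% in cadmium sperm and 3.44% to 4.21% in testes.

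The order of the 10 genes within control sperm is loose. In all 9 pairs of neighbouring ranks, the difference between the 2 means was smaller than the larger of their SDs over the 4 pools. At the lower edge, NONMMUG039787.2 at rank 11 had a mean of 8689 ± 1969 FPKM (SD, n = 4) and the first gene outside, NONMMUG020675.2 at rank 12, had 6989 ± 6178 FPKM. At the upper edge, NONMMUG018329.2 had 78566 ± 43744 FPKM and NONMMUG020676.2 had 25148 ± 21093 FPKM. Without pool 1 these were 99422 ± 16139 and 21476 ± 24217 FPKM (SD, n = 3). Without control sperm pool 3, 8 of the 10 stayed within the 11 highest genes and the lowest of them took rank 13. Ranked by share of the counts, which favours long transcripts, 8 of the 10 were within the 11 highest and the lowest took rank 17.

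The cadmium sperm libraries were not used in the choice. Ranked on their mean FPKM, 7 of the 10 genes were among the 11 highest, and all 10 among the 50 highest. NONMMUG074735.1 took rank 2 there and NONMMUG020672.2 rank 3. The 3 genes outside were NONMMUG039964.2 at rank 13, NONMMUG020676.2 at rank 20 and LXLOC_042885 at rank 28. Ranked by share of the counts, 7 were again among the 11 highest and 9 among the 50 highest, with LXLOC_042885 at rank 4, NONMMUG039964.2 at rank 10 and NONMMUG020676.2 at rank 51. In testes, by contrast, 2 of the 10 genes were among the 11 highest, NONMMUG020754.2 at rank 2 in control and 3 in cadmium testes, and LXLOC_037274 at ranks 6 and 8. NONMMUG039964.2, NONMMUG039787.2 and NONMMUG020672.2 took ranks 18, 23 and 32 in control testes, and the other 5 genes ranks 378 to 1255.

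A set of 5 genes, NONMMUG074735.1, NONMMUG049565.1, NONMMUG031296.2, NONMMUG020676.2 and LXLOC_042885, was at 63.1 to 575 FPKM in every testis library and far higher in sperm. NONMMUG074735.1, a single listed transcript of 1716 bp, was at 21761, 14883, 21119.7 and 14638 FPKM in control sperm pools 1 to 4 and at 95.9 and 214 FPKM in control testes. In cadmium-treated mice it was at 7490.3 and 14883 FPKM in sperm and at 122 and 309 FPKM in testes. The sperm and testis libraries did not overlap in either arm, with sperm means 117-fold higher in control and 51.9-fold higher in cadmium mice.

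NONMMUG049565.1, a single transcript of 674 bp, was the most even of the 10 in control sperm, at 14429, 12090.1, 12917 and 11526 FPKM. Control testes were at 79.4 and 223 FPKM, cadmium sperm at 6654 and 10679.7 FPKM and cadmium testes at 91.1 and 317 FPKM. Its coefficient of variation over the 4 control pools was 9.91%, against 21.4% to 83.9% for the other 9 genes. Without pool 1 it was 5.75%, with LXLOC_042885 next at 9.28% and the other 8 at 21.8% to 113%. Both cadmium sperm values of NONMMUG049565.1 lay below its lowest control pool.

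NONMMUG031296.2, a single transcript of 1318 bp, was at 14934, 7774, 17625 and 8755 FPKM in control sperm and at 178 and 375 FPKM in control testes. Cadmium sperm was at 3595 and 9464 FPKM and cadmium testes at 197 and 575 FPKM. Control pools 1 and 3 were thus the higher pair, as they were for NONMMUG074735.1, NONMMUG049565.1, NONMMUG020754.2, LXLOC_037274, NONMMUG039964.2 and NONMMUG039787.2. These pools also had the lowest total expected counts of the control sperm pools, 424606 and 366455. The part of depth in this order was not tested. Cadmium sperm library 2 was above library 1 for NONMMUG031296.2 and NONMMUG074735.1. Over the 6 sperm libraries, log2 FPKM of NONMMUG074735.1 had an r of 0.98 with NONMMUG031296.2 and of 0.97 with NONMMUG049565.1, a description over libraries that each supply both values of a point. The summed expected counts of these 3 genes were whole numbers in at most 1 of 10 libraries. Whether they shared reads with each other was not tested.

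NONMMUG020676.2 had the highest mean of the 10 in control sperm and the widest spread. It was at 36164 and 49419.5 FPKM in control sperm pools 1 and 2, but at 6605 and 8403 FPKM in pools 3 and 4, a range of 7.48-fold. Control testes were at 386 and 189 FPKM, cadmium sperm at 2557 and 4652 FPKM and cadmium testes at 441 and 139.8 FPKM. All sperm libraries lay above all testis libraries, and both cadmium sperm libraries lay below all control pools.

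The split between pools 1 and 2 and pools 3 and 4 was shared with the gene just outside the 10, NONMMUG020675.2. It was at 10307 and 14034 FPKM in pools 1 and 2, at 1531 and 2083 FPKM in pools 3 and 4 and at 319.7 and 936 FPKM in cadmium sperm. NONMMUG020674.2 at rank 13, named after its values were seen, had the same split, with 10527 and 12717 against 2203 and 1928 FPKM. Over the 6 sperm libraries, r of log2 FPKM between NONMMUG020676.2 and these 2 genes was 0.99 and 0.98, and with NONMMUG020672.2 it was 0.85. The 4 identifiers are close in number, and whether the genes lie together or share sequence was not analysed here.

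LXLOC_042885 was a predicted gene with a single transcript of 5174 bp, the longest of the 23 transcripts of the 10 genes. Unlike NONMMUG020676.2, this gene did not have pools 1 and 2 above pools 3 and 4. It was at 4997 FPKM in pool 1 and at 11503, 10732 and 12877 FPKM in pools 2 to 4. Control testes were at 63.1 and 109.6 FPKM, cadmium sperm at 2532 and 3656 FPKM and cadmium testes at 79.2 and 249 FPKM. Pool 1 was the low pool here, as it was for the first-ranked gene NONMMUG018329.2, at 15999 FPKM against 99963, 83019 and 115283 FPKM. Over the 6 sperm libraries the r of log2 FPKM between these 2 genes was 0.89, and cadmium sperm was below all 4 control pools for LXLOC_042885 and above pool 1 in 1 of 2 libraries for NONMMUG018329.2. Without pool 1 the control sperm mean of LXLOC_042885 was 11704 ± 1086 FPKM (SD, n = 3), against 10027 ± 3469 FPKM with it, and its rank was 6 in place of 9.

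**Figure D2:**
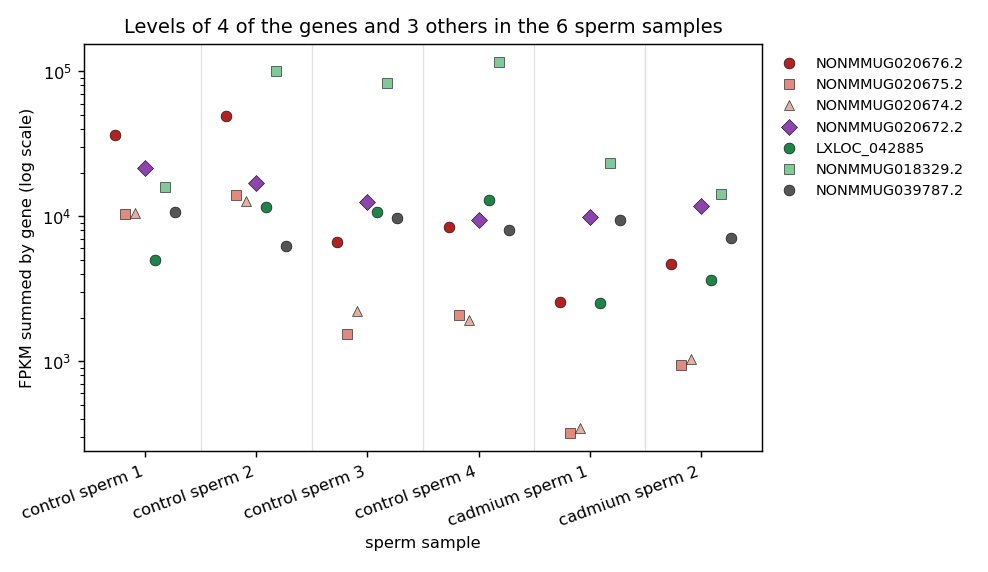
The y axis gives FPKM summed by gene on a log scale in the 4 control and 2 cadmium sperm libraries (x axis), for 4 of the 10 genes, the first-ranked gene NONMMUG018329.2 and the 2 genes just below rank 11 (points, one symbol per gene). NONMMUG020676.2, NONMMUG020675.2 and NONMMUG020674.2 were higher in control pools 1 and 2 than in pools 3 and 4, and LXLOC_042885 and NONMMUG018329.2 were lowest, among control pools, in pool 1.

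The other 5 genes were also abundant in testes. NONMMUG020754.2, with 8 listed transcripts, was at 13716, 9209, 14374 and 9964 FPKM in control sperm and at 10170.5 and 13465.5 FPKM in control testes. Cadmium sperm was at 7170.3 and 13972 FPKM and cadmium testes at 11342 and 15081 FPKM. Sperm and testes overlapped in both arms, and the control means, 11816 ± 2606 (SD, n = 4) and 11818 ± 2330.0 (SD, n = 2), were closer than either spread.

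LXLOC_037274, the other predicted gene, with a single transcript of 1333 bp, was at 11657, 7592, 13442 and 9363 FPKM in control sperm and at 4663 and 6477 FPKM in control testes. Cadmium sperm was at 7727 and 12302 FPKM and cadmium testes at 5256 and 6284 FPKM. Sperm lay above testes without overlap in both arms, by 1.89-fold in the control and 1.74-fold in the cadmium means. Over the 6 sperm libraries it varied with NONMMUG020754.2, with an r of 0.94.

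NONMMUG020672.2, with 4 listed transcripts, was at 21449, 16924, 12456 and 9382 FPKM in control sperm and at 3315 and 1205 FPKM in control testes. Cadmium sperm was at 9944 and 11742 FPKM and cadmium testes at 3256 and 1400.1 FPKM. Control pools 1 and 2 were the higher pair, as for NONMMUG020676.2, and sperm means were 6.66-fold and 4.66-fold above testes in the control and cadmium arms, with no overlap.

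NONMMUG039964.2 and NONMMUG039787.2 closed the list. NONMMUG039964.2 was at 11531, 4806, 11504 and 8795 FPKM in control sperm, 2421 and 3419 FPKM in control testes, 6348 and 5701 FPKM in cadmium sperm and 2563 and 3346 FPKM in cadmium testes. NONMMUG039787.2, a single transcript of 1472 bp, was at 10693.5, 6236, 9778 and 8049.9 FPKM in control sperm, 2503 and 2802 FPKM in control testes, 9358 and 7109 FPKM in cadmium sperm and 2591 and 2578 FPKM in cadmium testes. Both genes were lowest in pool 2 among the control pools and, unlike the other 8, lower in cadmium sperm library 2 than in library 1. Sperm lay above testes in both arms for each, by 3.14-fold and 2.04-fold for NONMMUG039964.2 and by 3.28-fold and 3.19-fold for NONMMUG039787.2.

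**Figure D3:**
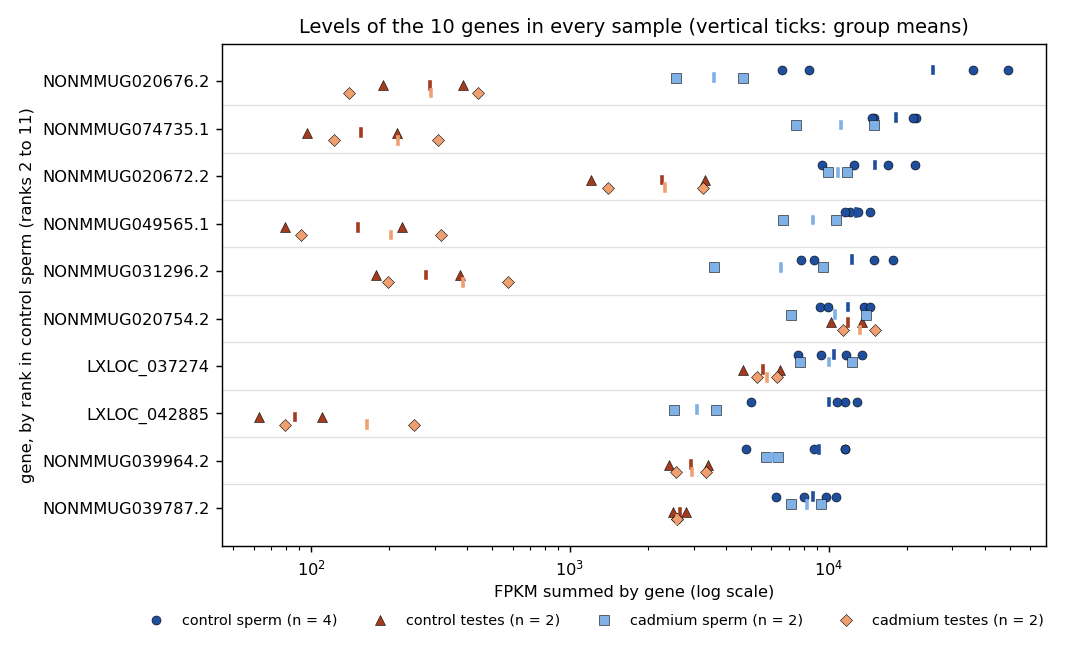
Each point is the FPKM of a gene (y axis, in order of rank) in one library on a log x axis, with 4 control sperm, 2 control testis, 2 cadmium sperm and 2 cadmium testis libraries and short vertical ticks at group means. Testis points lie below all sperm points for 9 genes and overlap them for NONMMUG020754.2, and 5 genes lie at or below 575 FPKM in every testis library.

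In the control arm, all 4 sperm pools lay above both testis libraries for 9 of the 10 genes and overlapped them for 1, where 5.46% of 25023 genes lay above and 40.1% below. Only a gene above 0 in all 4 pools could lie above, and control sperm pool 3 listed 7237 genes, which limits the share above. The median log2 fold of sperm over testes was 4.10 over the 10 genes (range −0.00 to 6.87) and −0.86 over all genes, the latter on log2(FPKM + 1). These genes were chosen for their level in those pools, so the contrast is a description and was not tested.

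The cadmium libraries allow the same contrast in samples that the choice did not use. With edgeR, a count model fitted across 25780 genes, 5 of the 10 genes were higher in cadmium sperm than in cadmium testes at an adjusted p under 0.05 and over 2-fold, and 0 were lower. Over all genes, 16.2% were called higher and 15.4% lower, 31.7% in all. By FPKM, both sperm libraries lay above both testis libraries for 9 of the 10, against 24.6% of all genes above and 41.9% below. The 5 called genes were those at or below 575 FPKM in all testis libraries. All 5 were also called with the other methods, but at unlike p-values. The adjusted p was 1.43e-17 to 2.34e-08 with DESeq2 and 0.0161 to 0.019 with limma on log2(FPKM + 1). NONMMUG074735.1 was 59.3-fold higher (log2 5.89 ± 1.11, SE, edgeR adjusted p = 1.97e-06). NONMMUG049565.1 was 47.8-fold higher (log2 5.58 ± 0.90, edgeR adjusted p = 2.05e-08). LXLOC_042885 was 20.8-fold (log2 4.38 ± 1.01, edgeR adjusted p = 0.000139), NONMMUG031296.2 19.4-fold (log2 4.28 ± 0.91, edgeR adjusted p = 3.22e-05) and NONMMUG020676.2 16.6-fold higher (log2 4.05 ± 0.74, edgeR adjusted p = 9.23e-07).

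The other 5 did not pass this test. NONMMUG020672.2 had a log2 fold of 2.44 ± 1.02 (SE, edgeR adjusted p = 0.051) and NONMMUG039787.2 of 1.89 ± 0.88 (edgeR adjusted p = 0.0857). NONMMUG020672.2 passed in 9 of 14 alternatives (adjusted p 4.01e-09 to 0.412, 2.98e-05 with DESeq2) and NONMMUG039787.2 in 7 of 14 (4.25e-06 to 0.307, 0.000667 with DESeq2), at log2 folds of 1.98 to 2.74 and 1.52 to 2.08. NONMMUG039964.2 and LXLOC_037274 had log2 folds of 1.23 ± 0.84 and 1.05 ± 0.91, with edgeR adjusted p of 0.266 and 0.394, although their libraries did not overlap. NONMMUG020754.2 had a log2 fold of −0.06 ± 0.83 (edgeR adjusted p = 0.97), and its sign turned to 0.47 without cadmium sperm replicate 1 and 0.34 without cadmium testes replicate 2. The count of 5 fell to 3 without cadmium testes replicate 1, where LXLOC_042885 (edgeR adjusted p = 0.0658) and NONMMUG031296.2 (edgeR adjusted p = 0.094) were no longer called. The sums of 3 other cell marker lists also differed between the tissues, largely through single genes. The Sertoli cell list summed to 2.82 and 8.97 FPKM in cadmium sperm and to 19.8 and 21.2 in cadmium testes, and the Leydig cell list to 3.47 and 5.59 against 21.2 and 15.0. Dhh made up 15.85 and 18.09 FPKM of the Sertoli cell sums in cadmium testes, and Clu overlapped between the tissues. The spermatogonia list summed to 6.90 and 9.46 against 23.8 and 28.6, of which Gfra1 was 0.39 and 1.08 against 21.66 and 26.95. Id4 and Uchl1 of that list ran the other way, Id4 at 4.78 and 7.35 against 0.65 and 0.23. The meiotic list overlapped, at 3.45 and 1.98 against 3.14 and 4.88. The meiotic sums rested on only 5 and 8 expected counts in cadmium sperm and 22 and 23 in cadmium testes. The part of these cells in the contrast was not tested.

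**Figure D4:**
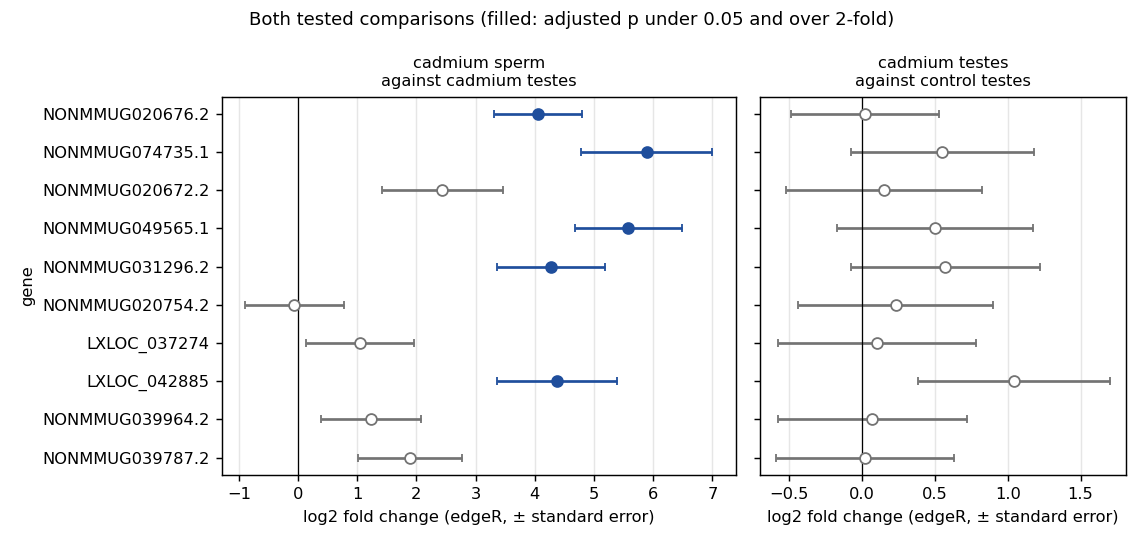
Points give the log2 fold change of each gene (y axis) from edgeR with its standard error, for cadmium sperm against cadmium testes (left, 2 libraries against 2) and cadmium testes against control testes (right, 2 against 2), and filled points passed the adjusted p and the fold threshold. In the left panel 5 genes passed, with log2 folds of 4.05 to 5.89, and in the right panel none did, with log2 folds of 0.02 to 1.04.

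Cadmium sperm and control sperm were compared as a description, since the control pools chose the genes. All 10 means were lower in cadmium sperm, with a median log2 fold of −0.58 (range −2.80 to −0.07), against 0.38 over all 21205 genes with sufficient values, on log2(FPKM + 1). Both cadmium libraries lay below all 4 control pools for 3 genes, NONMMUG020676.2 (mean 6.98-fold lower), LXLOC_042885 (3.24-fold lower) and NONMMUG049565.1 (1.47-fold lower), where 0.778% of all genes lay below and 17.0% above. The other 7 overlapped. Only a gene above 0 in all 4 control pools could lie below, and control sperm pool 3 listed 7237 genes, which limits the share over all genes. The smallest differences of means were those of LXLOC_037274, 1.05-fold lower, and NONMMUG039787.2, 1.06-fold lower. The total expected count and the number of sperm markers above 0 also differed between the arms, with 29337 and 31366 genes listed in cadmium sperm against 7237 to 27562 in control sperm. The epididymis markers summed to 4.75 and 9.19 FPKM in cadmium sperm and 0 to 2.85 in control sperm. The leukocyte markers summed to 5.30 and 1.70 against 0 to 0.860. These sums lay near the floor. The epididymis sums rested on 6 and 13 expected counts against 0 to 5, and the leukocyte sums on 13 and 5 against 0 to 3. The epithelium markers, at 8.61 and 11.5 FPKM in cadmium sperm, overlapped those of control sperm. The part of depth and of these cells in the differences was not tested.

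In testes, cadmium and control could be tested, since the choice used neither. None of the 10 genes was called (edgeR, 0 of 10, with 0 at an unadjusted p under 0.05, and 0 of 10 with DESeq2), and 0.0150% of 26721 genes were called in either direction (0.0112% higher and 0.00374% lower). With the replicate number as a block in edgeR, 5 of the 10 had an unadjusted p under 0.05, against 1068 of 26721 genes, and 0 were called. Without the block, the log2 fold changes were 0.02 to 1.04 and every edgeR adjusted p was 1. The furthest from 0 was LXLOC_042885, at 63.1 and 109.6 FPKM in control and 79.2 and 249 FPKM in cadmium testes, with a log2 fold of 1.04 ± 0.66 (SE). It was −0.31 without cadmium testes replicate 2 and 0.54 to 1.76 without each of the other 3 libraries. For all 10 genes the cadmium and control testis libraries overlapped in FPKM, where 8.18% of all genes lay above in cadmium testes and 9.98% below.

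The 2 testis libraries of an arm also differed from each other. NONMMUG074735.1, NONMMUG049565.1, NONMMUG031296.2 and LXLOC_042885 were higher in replicate 2 than in replicate 1 in both arms, by 1.74-fold to 2.81-fold in control and 2.53-fold to 3.48-fold in cadmium testes. NONMMUG020676.2 and NONMMUG020672.2 ran the other way in both arms. NONMMUG020676.2 was 2.04-fold and 3.15-fold higher in replicate 1, and NONMMUG020672.2 2.75-fold and 2.33-fold. NONMMUG020675.2, at rank 12, was 17.6-fold and 12.9-fold higher in replicate 1, at 65.1 against 3.69 FPKM in control and 37.0 against 2.87 FPKM in cadmium testes. In all, 9 of the 10 genes had the same direction between replicates in both arms, the exception being NONMMUG039787.2, at 2503 and 2802 FPKM in control and 2591 and 2578 FPKM in cadmium testes.

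The 10 genes held 23 listed transcripts of 264 to 5174 bp. There were 6 genes with 1 transcript each, NONMMUG074735.1, NONMMUG049565.1, NONMMUG031296.2, LXLOC_037274, LXLOC_042885 and NONMMUG039787.2. NONMMUG039964.2 had 2, of which NONMMUT064718.2 (1485 bp) held 95.6% to 99.4% of the FPKM in every library. NONMMUG020754.2 had 8, of which NONMMUT033771.2 (632 bp) held 82.5% to 89.1% and NONMMUT033776.2 (265 bp) 10.2% to 17.5%. The 3 transcripts of NONMMUG020676.2 were more even, with NONMMUT033637.2 (287 bp) at 20.8% to 40.8%, NONMMUT033638.2 (1026 bp) at 35.8% to 52.2% and NONMMUT033639.2 (392 bp) at 13.1% to 41.0%. The shares varied less between libraries than the level of the gene did.

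NONMMUG020672.2 differed in its make-up between sperm and testes. Its 2 long transcripts, NONMMUT033603.2 (2686 bp) and NONMMUT033615.2 (2869 bp), held 32.0% to 52.1% and 38.6% to 59.8% of the FPKM in the 10 libraries. Another transcript, NONMMUT105101.1 (514 bp), named after its values were seen, was at 2293, 2222, 275 and 1058 FPKM in control sperm and at 1481 and 327 FPKM in cadmium sperm, and was listed in no testis library. These FPKM rested on 454, 1117, 46.6 and 254 expected counts in control sperm and 814 and 194 in cadmium sperm. As a share of counts it was at least 597-fold higher in control sperm and at least 387-fold higher in cadmium sperm, by group means, than the floor of 3 counts per testis library. The lowest sperm library of each arm was at least 110-fold and at least 139-fold above that floor.

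**Figure D5:**
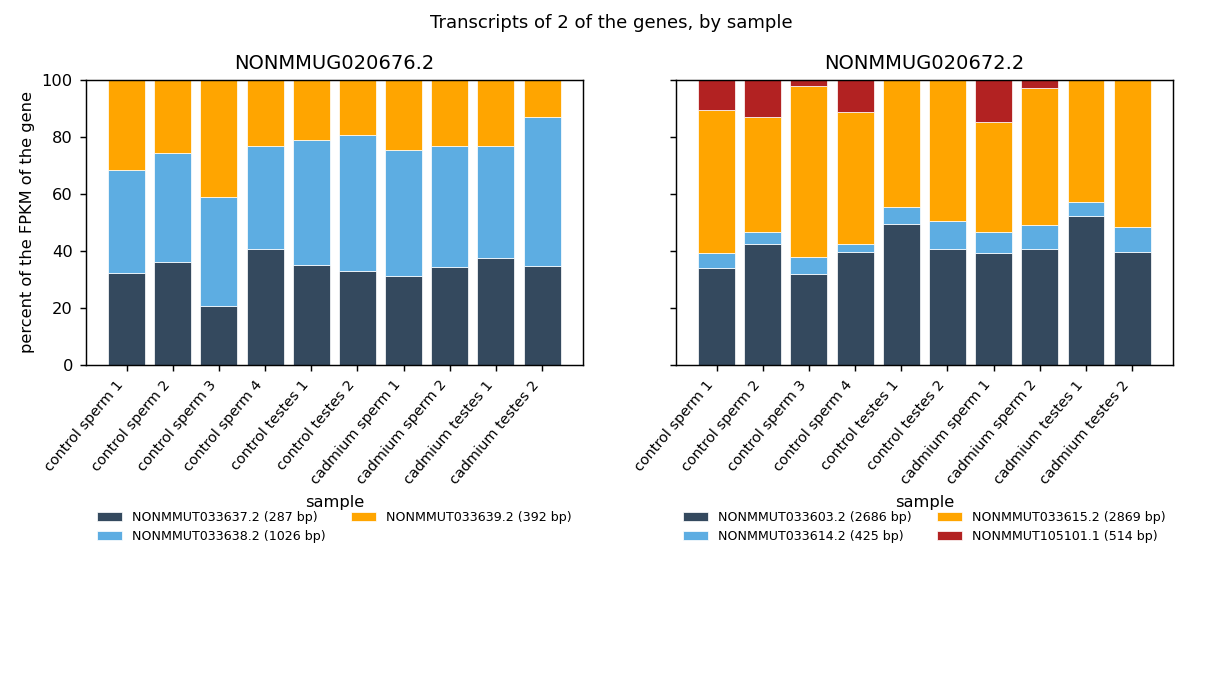
Stacked bars give the percent of the FPKM of the gene (y axis) on each listed transcript in the 10 libraries (x axis), for NONMMUG020676.2 (left, 3 transcripts) and NONMMUG020672.2 (right, 4 transcripts). NONMMUT105101.1 held 2.20% to 14.9% of NONMMUG020672.2 in the 6 sperm libraries and 0 in the 4 testis libraries.

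In NONMMUG020754.2 both cadmium testis libraries listed a minor transcript that no other library did. NONMMUT033778.2 (264 bp), also named after its values were seen, was at 98.97 and 83.6 FPKM in cadmium testes, from 60.8 and 48.2 expected counts. It held 0.873% and 0.554% of the FPKM of the gene there. As a share of counts it was at least 17-fold, and at least 15-fold in the lower library, above the floor of 3 counts in control testes. With transcripts in place of genes in the same edgeR test, it was not called between cadmium and control testes (edgeR adjusted p = 0.115). In that test 0 of 28423 transcripts were called.

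How reads were divided between transcripts bears on these values. The summed expected counts of NONMMUG020676.2, NONMMUG020754.2, LXLOC_037274 and NONMMUG039964.2 were whole numbers, within 0.05, in all 10 libraries, as they are when reads are divided only among transcripts of the gene. For the other 6 genes the sum was not whole in at least some libraries (whole in 0 to 5 of 10). This can arise when part of the reads is divided with transcripts listed under other genes. NONMMUG074735.1 was whole in 0 of 10. Whether these 6 genes shared reads with others, and with which, was not analysed here. The lowest expected count of any of the 10 genes in any library was 143, for NONMMUG049565.1 in control testes.

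The profile of the 10 genes over the 10 libraries, as the mean of their log2(FPKM + 1), was most like those of 3 other genes among 6102 with a mean of at least 10 FPKM. NONMMUG009018.2 had an r of 0.997, with 999.9 to 2152 FPKM in control sperm and 18.9 to 28.7 FPKM in testes. Cnbd2, which encodes a protein with a cyclic nucleotide-binding domain, had an r of 0.994, with 831 to 1037 FPKM in control sperm, 338.5 and 699 FPKM in cadmium sperm and 13.1 to 46.3 FPKM in testes. NONMMUG077504.1 had an r of 0.991, with 128 to 686 FPKM in control sperm, and was listed at 0 in all 4 testis libraries. These correlations span 2 tissues and points that share a library, and describe likeness of pattern only.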

How the data were processed

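RNA from 6 sperm and 4 testis libraries had its ribosomal RNA removed by RNase H digestion and was sequenced, after fragmentation, as strand-specific paired ends. The authors deposited, per transcript and library, an expected count (estimated, not always whole) and an FPKM value. The study names SOAP2 for alignment, the submitters' processing notes name HISAT and mm10, and the counting program was not given in the sources used here. Identifiers of 39 transcripts had been turned into dates in some tables and were restored by transcript where another table held them (7 were left), none in the 10 genes. Lists and genes were chosen with earlier results of these data known.

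FPKM and expected counts were summed by gene. Expected counts were rounded and tested with edgeR 4.0.16 (quasi-likelihood, TMM, Benjamini-Hochberg over all genes) on genes with an FPKM of at least 1 in at least 2 of the samples compared, and called at an adjusted p under 0.05 and over 2-fold. Only cadmium sperm against cadmium testes and cadmium testes against control testes were tested, since the control sperm pools chose the genes. Alternatives used DESeq2 1.42.0, limma 3.58.1 with pseudocounts of 1 and 0.1, other scalings and filters, a replicate block and leaving out each library. The named genes were the 10, the genes ranked just before and after them, the 3 most alike in profile, and transcripts with at least 10% of the FPKM of a gene. Total expected counts per library were 366455 to 2866856. No 2 libraries of a group agreed within sampling noise (chi-square per degree of freedom 9.57 to 16.5). The scripts were tested on simulated data, in R 4.3.3 and Python 3.11.15.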

Additional observations from a re-analysis of the deposited data

How the results depend on the processing

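The count of genes higher in cadmium sperm than in cadmium testes (5) was 5 to 7 under other scalings, filters, DESeq2, limma and shared models, 3 to 6 with each library left out in turn, and 9 with the replicate number as a block. The numbers 1 and 2 are shared by the groups in the labels, but no label says that they pair libraries. The log2 difference between libraries 1 and 2 of a group was correlated across genes with that of another group, each from 2 libraries. The r was 0.446 between the testis groups (26721 genes) and 0.091 between cadmium sperm and cadmium testes (25780 genes). With the block, all genes called in cadmium testes against control testes went from 3 higher and 1 lower to 43 and 29. Of the 10, 0 were called there, and 5 had an unadjusted edgeR p under 0.05. LXLOC_042885 had an edgeR adjusted p of 9.20e-06 at a log2 fold of 0.84, under the 2-fold threshold. The blocked pairing left NONMMUG020754.2 alone uncalled in cadmium sperm against testes. The count of genes lower in cadmium sperm, and of genes called between testes, was 0 in all 14 alternatives each. The median of all genes in the tissue contrast was −0.30 (log2) with TMM and −0.56 with library totals. The median log2 fold of the 10 genes in control sperm over testes was 3.94 to 4.34 with a library left out, and that of cadmium over control sperm −0.83 to −0.32.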
